A study of Mus musculus with 26 samples.

Results

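The genes described here encode subunits of voltage-gated sodium and calcium channels, measured in ribosome-bound RNA purified from mouse accumbens nucleus through a Drd2-driven tag. They were chosen by symbol, as every gene whose symbol begins with Scn and a digit (Scn4b left out) or with Cacn and that had at least 10 counts in at least 3 of the 26 libraries. Of the 31735 genes listed for every library, 39 carried such a symbol and 31 were kept, 9 sodium channel genes and 22 calcium channel genes. The rule used a floor on counts and no comparison between groups, but it was set with earlier results of these data known. For comparison, 16008 genes of the whole series met the same floor.

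Voltage-gated sodium channels open on depolarisation and carry the inward current that starts the action potential. The pore and its gates lie in a large alpha subunit, and smaller beta subunits, which span the membrane, change gating and surface levels. Voltage-gated calcium channels turn depolarisation into calcium entry, which drives transmitter release at terminals and signalling to the nucleus from dendrites. Their pore subunits fall into the Cav1 (L-type), Cav2 (P/Q-, N- and R-type) and Cav3 (T-type) families. Cytoplasmic beta subunits and extracellular alpha2delta subunits bring Cav1 and Cav2 pores to the membrane. The genes named Cacng after the gamma subunit of the muscle calcium channel include the transmembrane AMPA receptor regulatory proteins (TARPs), which act mainly on glutamate receptors. In medium spiny neurons, the projection neurons of the striatum, these channels shape the passage between a quiet resting state and firing.

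The mice carried Drd2-EGFP/Rpl10a (line CP101), in which regulatory sequence of the dopamine D2 receptor gene drives a tagged ribosomal protein, so that antibodies against EGFP pull down the ribosomes of Drd2-expressing cells with the RNA bound to them (translating ribosome affinity purification, TRAP). All animals were adult and of an FVB/N-Swiss Webster background crossed for at least 9 generations to C57BL/6, and all had intravenous self-administration with long access to cocaine or saline. The 24 immunopurified libraries were 8 from nonescalating cocaine mice after withdrawal, 6 from saline mice after withdrawal, 2 from escalating cocaine mice, 5 from nonescalating cocaine mice and 3 from saline mice. Total RNA gave 1 nonescalating input library and 1 saline input library. The doses, the length of withdrawal and the number of animals behind a library are not given in the labels, and n counts libraries throughout. p-values therefore measure the spread between libraries, which may be partly technical. The 5 nonescalating libraries are described as withdrawal libraries in a secondary label, and their titles, which were followed here, do not say so. The libraries carry numbers in 2 runs, 1806 to 1825 (called set 1 here) and 1836 to 1843 (set 2). Set 2 holds 5 of the nonescalating withdrawal and 3 of the saline withdrawal libraries and no library without withdrawal.

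Total counts in genes lay between 1541717 and 17504022 in the immunopurified libraries and were 37500580 in the nonescalating input and 4700347 in the saline input. The 31 genes together took between 2213 and 6947 CPM (counts-per-million, scaled to library size) in the immunopurified libraries, with a median of 5699 CPM, against 5735 CPM in the nonescalating input and 6331 CPM in the saline input. The lowest sum belonged to nonescalating replicate 4, in which Drd2 was also lowest at 242.6 CPM, against 881 to 3102 CPM in the other 23 immunopurified libraries. The nuclear RNA Malat1 was highest in that library. All 8 markers of D2 neurons had positive log2 fold changes in immunopurified against input RNA (median 1.74), and all 6 markers of D1 neurons had negative ones (median -2.17). Markers of vessels were on the positive side too, 7 of 7 endothelial markers with a median of 4.06 and 7 of 7 mural markers with a median of 4.29.

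Several of the genes lie side by side in the genome, and neighbours differed widely in level. On mouse chromosome 2 (GRCm38, the assembly of the mm10 build used by the authors) 5 sodium channel pore genes form a cluster, with Scn3a at bases 65457118 to 65567627 (minus strand), Scn2a1 at 65620771 to 65767447 (plus), Scn1a at 66270778 to 66440840 (minus), Scn9a at 66480080 to 66634962 (minus) and Scn7a at 66673425 to 66784914 (minus). Scn7a was not kept by the count floor. On chromosome 7 lie Cacng7 (bases 3332955 to 3368221), Cacng8 (3390683 to 3415648) and Cacng6 (3424195 to 3435667), all on the plus strand. Their median counts over the 26 libraries were 372.5 for Cacng7, 35 for Cacng8 and 0 for Cacng6.

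The start regions of kept genes and of a neighbour that was not kept are shown for both clusters, 300 bases each from the RefSeq promoter table (GRCm38.p6, 250 bases before to 50 after the listed start), 5′ to 3′ on the strand of the gene, with every CG dinucleotide in capitals so that the starts can be compared. The number of CG given below is that of each window only. The windows of Cacng8 and Cacng6 lie inside the spans of those genes given above, so they need not hold the first start of the gene. That of Cacng7 ends before the span of Cacng7 given above begins. Cacng7 at chr7:3332575-3332874 (plus strand) holds 15 CG and Cacng8 at chr7:3393792-3394091 (plus) holds 2, both kept, and Cacng6 at chr7:3424412-3424711 (plus), which was not kept, holds 8. Scn1a at chr2:66440788-66441087 (minus), which was kept, holds 5 and Scn7a at chr2:66784861-66785160 (minus), which was not, holds 3. Both listed starts of Scn2a1, with 3 and 9 CG, belong to a kept gene, and so does that of Scn9a, with 9 CG.
Cacng7: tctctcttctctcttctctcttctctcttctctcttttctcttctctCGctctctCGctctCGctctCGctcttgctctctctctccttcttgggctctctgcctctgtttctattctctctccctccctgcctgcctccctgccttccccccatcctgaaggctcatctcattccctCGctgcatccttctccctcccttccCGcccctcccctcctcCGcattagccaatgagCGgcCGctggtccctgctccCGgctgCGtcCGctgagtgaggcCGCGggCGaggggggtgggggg
Cacng8: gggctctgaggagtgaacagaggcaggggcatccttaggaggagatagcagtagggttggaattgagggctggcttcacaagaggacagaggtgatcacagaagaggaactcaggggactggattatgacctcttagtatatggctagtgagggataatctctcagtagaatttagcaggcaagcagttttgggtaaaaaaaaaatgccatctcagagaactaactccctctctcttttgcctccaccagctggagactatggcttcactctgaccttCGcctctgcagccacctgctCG
Cacng6: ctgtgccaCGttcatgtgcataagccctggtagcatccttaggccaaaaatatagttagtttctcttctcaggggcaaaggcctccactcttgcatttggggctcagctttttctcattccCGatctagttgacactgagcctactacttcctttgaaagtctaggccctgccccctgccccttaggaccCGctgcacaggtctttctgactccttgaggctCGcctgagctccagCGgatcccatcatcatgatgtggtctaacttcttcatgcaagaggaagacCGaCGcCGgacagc
Scn1a: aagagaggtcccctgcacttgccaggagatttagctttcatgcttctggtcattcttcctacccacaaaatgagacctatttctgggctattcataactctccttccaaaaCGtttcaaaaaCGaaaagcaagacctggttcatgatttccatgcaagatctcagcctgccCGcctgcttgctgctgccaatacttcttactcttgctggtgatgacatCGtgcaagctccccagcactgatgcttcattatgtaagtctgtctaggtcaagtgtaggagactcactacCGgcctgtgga
Scn7a: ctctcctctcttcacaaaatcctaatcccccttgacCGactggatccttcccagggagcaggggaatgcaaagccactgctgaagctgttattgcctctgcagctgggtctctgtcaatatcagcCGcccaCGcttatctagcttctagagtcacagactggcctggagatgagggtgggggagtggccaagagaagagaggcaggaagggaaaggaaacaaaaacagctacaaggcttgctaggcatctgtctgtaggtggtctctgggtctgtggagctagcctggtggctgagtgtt

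Over all kept genes, the table held 33 starts of 22 genes, with a median of 12 CG per start (lowest 2, highest 63), and 16 starts (48.5%) had at least 15 CG. The 7 starts of 7 genes that were not kept had a median of 5 CG (lowest 3, highest 11), and 0 reached 15. Among all 32851 starts in the table the median was 7 CG and 34.6% reached 15. The cyclic AMP response element TGACGTCA was searched on both strands and found in 0 of the 33 starts, against 1.79% of all starts. The left part of the neuron-restrictive silencer element, TTCAGCACC, was likewise in 0, against 0.371% of all starts, and the right part, GGACAGCG, was in 1 (a start of Cacnb1), or 3.03% against 1.26%. These motifs do not overlap each other, and a match or its absence describes the letters of this window only.

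Levels were compared between genes in TPM (transcripts-per-million), counts divided by the merged exon length of each gene, and are given as mean ± SD over the 24 immunopurified libraries. A gene was taken as above the next in order when the mean log2 ratio of the pair, on the log2(TPM + 0.1) scale, was larger than its SD over those libraries. By this measure Scn2b, a sodium channel beta subunit, had the highest level of the 31 genes at 642 ± 204 TPM, above Cacng7 at 226 ± 111 TPM. Cacna2d4 was lowest at 2.12 ± 3.19 TPM. These are levels of the immunopurified RNA, in which vessel markers were on the positive side too. The part of vessel cells in the levels of the channel genes was not tested.

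**Figure D1:**
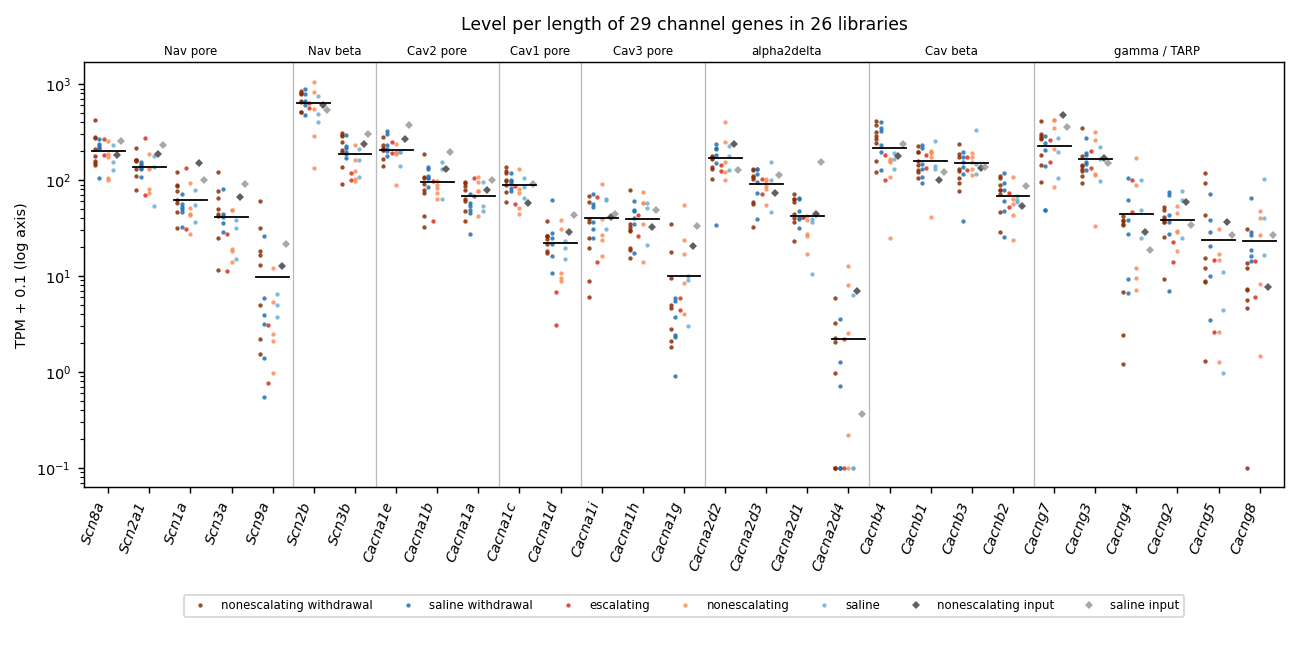
Level of 29 channel genes in TPM (log axis, 0.1 added), by role; each dot is a library and the bar is the mean of the 24 immunopurified libraries. Scn2b stands highest at 642 TPM and Cacna2d4 lowest at 2.12 TPM.

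Among the sodium channel pores, Scn8a, the main pore of nodes of Ranvier and of the distal initial segment in mature neurons, had the highest level at 203 ± 72.9 TPM, or 44.8% of the summed TPM of the 6 pore genes on average. Scn8a lay between 99.4 and 421 TPM with a median of 197 TPM. Scn2a1, the pore of the proximal initial segment and of unmyelinated axons, followed at 138 ± 49.2 TPM (30.4%). Scn8a was above Scn2a1 in 18 of 24 libraries, by a log2 ratio of 0.56 ± 0.55 (SD), so the pair was only just apart. Scn1a, best known from fast-spiking GABA neurons, stood at 61.4 ± 27.7 TPM and was below Scn2a1 in 24 of 24 libraries (log2 ratio of Scn2a1 to Scn1a 1.20 ± 0.33). Scn3a, known mainly from the embryonic brain, stood at 40.9 ± 25.6 TPM and was below Scn1a in 20 of 24. Scn9a, a pore of peripheral sensory and sympathetic neurons, was low at 9.60 ± 13.7 TPM and gave 1.98% of the pore sum.

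Among the sodium channel beta subunits 1 gene stood out. Scn2b, whose product is linked to the pore by a disulfide bond, made up 69.3% ± 11.3 (SD, n = 24) of the summed TPM of the 3 genes and lay between 134 and 1059.9 TPM with a median of 649 TPM. It was above Scn3b in 24 of 24 libraries, by a log2 ratio of 1.78 ± 0.58. Scn3b, whose product binds the pore without such a bond, stood at 186 ± 68.7 TPM, with libraries between 91.96 and 312 TPM with a median of 192 TPM. Scn4b, which also encodes a beta subunit, was outside the choice of genes.

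Among the Cav2 pores, which open at strong depolarisation and serve transmitter release, the R-type pore Cacna1e led at 207 ± 50.7 TPM. It made up 55.7% ± 8.35 (SD, n = 24) of the Cav2 sum and was above the N-type pore Cacna1b, at 94.97 ± 36.3 TPM, in 24 of 24 libraries (log2 ratio 1.19 ± 0.60). The P/Q-type pore Cacna1a stood at 68.2 ± 22.7 TPM, and its order against Cacna1b was not beyond the spread. In total RNA the same order held, with Cacna1e at 268 TPM in the nonescalating input and 371 TPM in the saline input, Cacna1b at 131 TPM in the nonescalating input and 197 TPM in the saline input and Cacna1a at 78.3 TPM in the nonescalating input and 100.3 TPM in the saline input.

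Both L-type pores known from brain were present. Cacna1c, the main L-type pore of neurons and heart, stood at 89.6 ± 24.9 TPM and Cacna1d, which opens at more negative voltages and supports pacemaking, at 21.9 ± 12.4 TPM. Cacna1c was higher in 24 of 24 libraries (log2 ratio 2.21 ± 0.91) and made up 80.7% of the pair on average. Cacna1d lies on chromosome 14 at bases 30039939 to 30491455 on the minus strand, and 589 bases of its exons overlap exons of Chdh on the opposite strand. Whether counting used the strand is not given in the sources used here, so reads of such overlapping genes cannot be told apart.

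The T-type pores open near rest and drive burst firing. Cacna1i and Cacna1h were at like levels, 40.4 ± 22.8 TPM and 39.3 ± 18.4 TPM, and each was the higher in 12 of 24 libraries. Cacna1g was lower at 9.89 ± 12.4 TPM and below Cacna1h in 22 of 24. On the log2 CPM scale it varied most of the 3 within groups (SD 1.25, against 1.03 for Cacna1i and 0.71 for Cacna1h). Its libraries lay between 0.816 and 54.7 TPM, with a median of 5.17 TPM.

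Of the alpha2delta subunits, Cacna2d2 led at 171 ± 69.97 TPM, above Cacna2d3 at 92.03 ± 32.4 TPM in 23 of 24 libraries. Cacna2d1, which with Cacna2d2 is a target of gabapentin, stood at 42.04 ± 15.8 TPM and was below Cacna2d3 in 22 of 24. Cacna2d4, known from retinal photoreceptors, had 0 counts in 10 of the 26 libraries. It had 10 or more counts in 10 libraries, the fewest of any gene that was kept, and Cacng8 had them in 20 and Cacng5 in 21. The genes nearest to the floor that were not kept, Cacna1f, Cacng6, Scn10a and Scn7a, had them in 2 libraries each.

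Of the cytoplasmic beta subunits, Cacnb4, the subunit altered in the lethargic mouse, stood at 217 ± 105 TPM. Cacnb1 stood at 159.9 ± 50.7 TPM and Cacnb3 at 151 ± 58.5 TPM. Neither Cacnb4 over Cacnb1 nor Cacnb1 over Cacnb3 was beyond the spread. Cacnb2 was lower at 68.2 ± 26.4 TPM, below Cacnb3 in 22 of 24 libraries. Exons of Cacnb4 share 1433 bases with A430018G15Rik on the opposite strand.

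The gamma family split into a high and a low group. Cacng7 at 226 ± 111 TPM and Cacng3 at 166 ± 73.6 TPM formed the high group, with no order beyond the spread between them, and made up 42.2% and 32.5% of the family sum. Cacng3 was above Cacng4, at 43.9 ± 42.00 TPM, in 24 of 24 libraries. Cacng2, or stargazin, the founding TARP, stood at 38.5 ± 19.4 TPM, Cacng5 at 23.9 ± 30.6 TPM and Cacng8 at 23.1 ± 23.4 TPM. Between genes next to each other in the order of these 4, no difference was beyond the spread. Cacng8, the main TARP of hippocampal neurons, had 0 counts in 1 library.

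**Figure D2:**
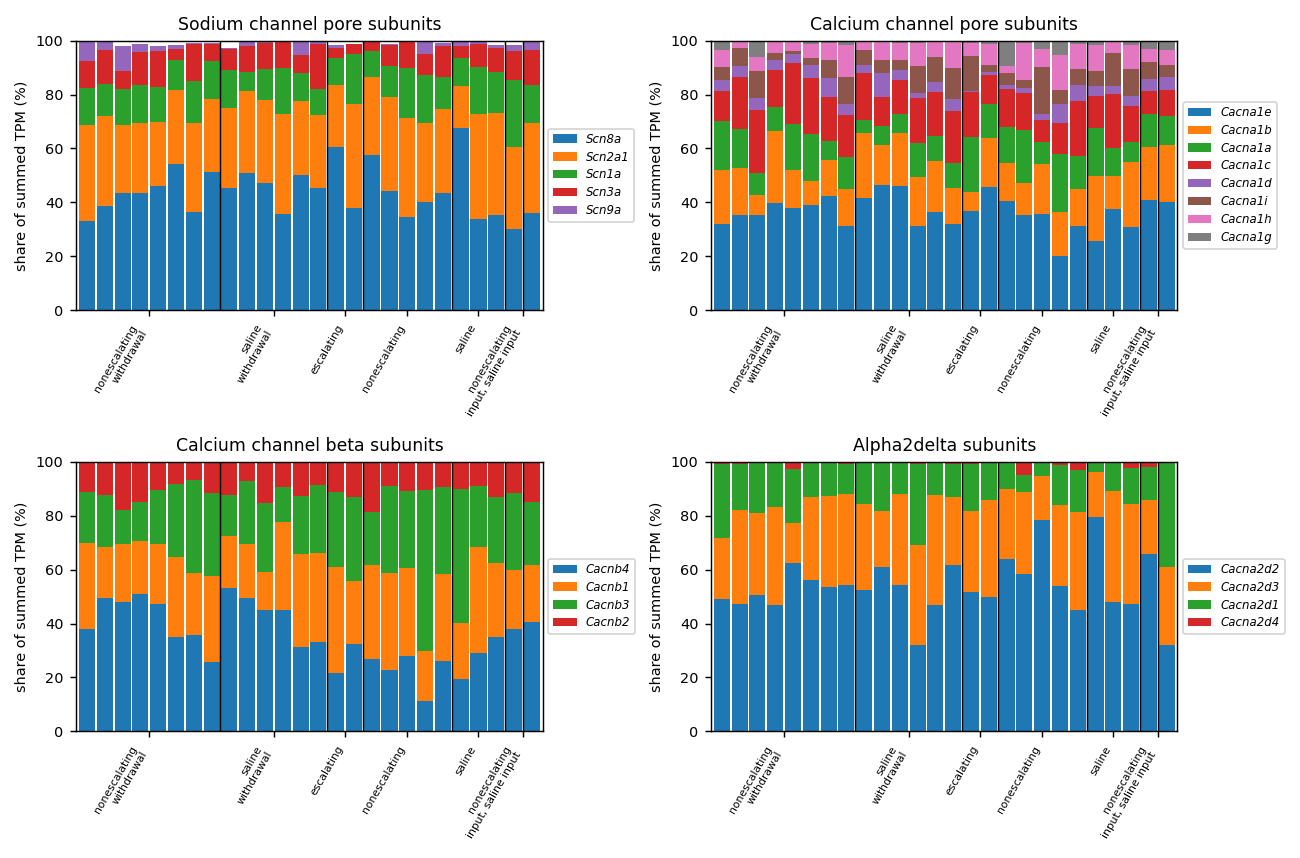
Share of the summed TPM (percent) that each gene takes within the sodium channel pores, the calcium channel pores, the calcium channel beta subunits and the alpha2delta subunits, with 1 stacked bar per library and libraries grouped by condition. Bars of the sodium channel pores end below 100% where a gene that is not shown takes the rest. Scn8a averaged 44.8% of the sodium pore sum over the 24 immunopurified libraries.

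The 8 genes with a matching symbol that were not kept belong largely to other organs. Cacna1s, Scn4a and Cacng1 are known from skeletal muscle, Cacna1f from retina, and Scn10a and Scn11a from sensory neurons. Scn7a encodes a sodium sensor of glia, and Cacng6 lies next to Cacng8. They had 0 counts in 20 to 25 of the 26 libraries. The highest single counts were 158 for Cacng1 and 53 for Cacng6, both in nonescalating withdrawal replicate 4 of set 1, 108 for Cacna1f and 51 for Scn7a in the nonescalating input, and 65 for Scn10a in saline replicate 3. Cacna1s, Scn11a and Scn4a never passed 8, 9 and 7 counts.

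Immunopurified RNA was compared with total RNA to see which channel genes the tagged ribosomes were rich or poor in, with 8 immunopurified libraries (5 nonescalating, 3 saline) against 2 inputs. The fit tested 14929 genes with edgeR's quasi-likelihood test, and 38 of them (0.255%) passed an adjusted p of 0.05 (Benjamini-Hochberg). None of the 31 channel genes passed. At an unadjusted p under 0.05 there were 3, Cacna2d1, Scn3a and Scn1a, all lower in immunopurified RNA, or 9.68% of the 31 against 8.27% of all genes. All 6 sodium channel pore genes had negative log2 fold changes, also with median-of-ratios scaling, with a median of -1.17, against -0.18 over the 31 genes and 0.072 over all genes tested. The median of these 6 was -1.10 without nonescalating replicate 4, the library low in Drd2, and -0.57 without the nonescalating input, and that of the 31 was -0.51 without the saline input. In RNA from tissue, fewer cells of a type and less RNA per cell cannot be told apart, and this holds for every comparison here.

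Cacna2d1 was at 100.05, 34.5, 65.8, 49.4 and 80.6 CPM in the nonescalating and 24.9, 105 and 75.1 CPM in the saline immunopurified libraries, against 97.4 CPM in the nonescalating input and 299 CPM in the saline input. All 8 immunopurified libraries were below the saline input. The log2 fold change was -1.42 ± 0.57 (SE; adjusted p = 0.455, edgeR quasi-likelihood test). Scn3a was at 36.3, 36.99, 122, 34.4 and 93.8 CPM in the nonescalating and 36.00, 103 and 64.97 CPM in the saline immunopurified libraries, against 147 CPM in the nonescalating input and 179 CPM in the saline input. Every immunopurified library was below both inputs, and the log2 fold change was -1.28 ± 0.55 (SE; edgeR adjusted p = 0.515). Scn1a was at 100.05, 50.1, 209.6, 71.5 and 87.9 CPM in the nonescalating and 76.7, 189 and 102 CPM in the saline immunopurified libraries, against 295 CPM in the nonescalating input and 176 CPM in the saline input. Its log2 fold change was -1.07 ± 0.50 (SE; edgeR adjusted p = 0.598). Scn9a had 5.28, 1.81, 6.13, 22.1 and 10.3 CPM in the nonescalating and 15.6, 13.4 and 7.66 CPM in the saline immunopurified libraries, against 28.6 CPM in the nonescalating input and 42.9 CPM in the saline input. Again all 8 were below both inputs (log2 fold change -1.71 ± 0.88, edgeR adjusted p = 0.658). How many of all genes lay below both inputs in this way was not computed. With limma's voom and quality weights in place of edgeR, 1091 genes (7.31%) passed, among them Scn1a (log2 fold change -1.41, adjusted p = 0.0194), Scn3a (-1.33, 0.0355) and Scn9a (-1.96, 0.0401).

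The lowest unadjusted p-values among genes with higher levels in immunopurified RNA belonged to Cacng4 (log2 fold change 1.51 ± 1.18), Cacnb1 (0.78 ± 0.61), Cacng8 (1.45 ± 1.24), Cacnb3 (0.48 ± 0.51) and Cacna1c (0.29 ± 0.46), and their edgeR adjusted p-values lay between 0.91 and 0.998. Cacng5 had a negative log2 fold change of -1.82 ± 1.16 (edgeR adjusted p = 0.798). No interval of the 31 genes lay within a 2-fold change at 95% confidence, so equal levels in both kinds of RNA were not shown for any of them. The summed CPM of the 7 endothelial markers was 962 to 4900 in the nonescalating and 825 to 4753 in the saline immunopurified libraries, against 96.3 in the nonescalating input and 283.3 in the saline input. The 7 mural markers summed to 618 to 3267 CPM in the nonescalating and 814 to 4844 CPM in the saline immunopurified libraries, against 107.3 CPM in the nonescalating input and 147.9 CPM in the saline input, where 1 marker was at 0. On the negative side were 6 of 6 tested GABA interneuron markers (median -2.52) and 5 of 5 cholinergic interneuron markers (median -1.78). So were 7 of 8 astrocyte markers (median -1.09) and 7 of 8 oligodendrocyte markers (median -2.25). Other lists were mixed. Among microglia markers C1qa was at 1.39 and Cx3cr1 at -1.09. Among oligodendrocyte precursor markers Cspg4 was at 2.03 and Olig2 at -3.45. Among shared medium spiny neuron markers Foxp1 was at 1.02 and Rgs9 at -0.97. Nuclear RNAs were split too, with Neat1 at 3.07, Xist at 1.15, Malat1 at 0.757, Rian at -1.93 and Meg3 at -1.88. The GABA interneuron markers summed to 68.2 to 333 CPM in the nonescalating and 181 to 310.1 CPM in the saline immunopurified libraries, against 669.8 CPM in the nonescalating input and 422 CPM in the saline input. Of their 7 genes, 2 were at 0 in all saline immunopurified libraries and 1 in the nonescalating input. The cholinergic markers summed to 9.995 to 46.4 CPM in the nonescalating and 9.81 to 34.3 CPM in the saline immunopurified libraries, against 128 CPM in the nonescalating input and 32.5 CPM in the saline input, where 1 of 5 was at 0. The astrocyte markers summed to 374 to 2605 CPM in the nonescalating and 971 to 2244 CPM in the saline immunopurified libraries, against 3036 CPM in the nonescalating input and 2586 CPM in the saline input. The oligodendrocyte markers summed to 376 to 3459 CPM in the nonescalating and 429 to 3083 CPM in the saline immunopurified libraries, against 4432 CPM in the nonescalating input and 1664 CPM in the saline input. The part of these cell types in the lower levels of the sodium channel pore genes, Scn1a among them, was not tested.

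**Figure D3:**
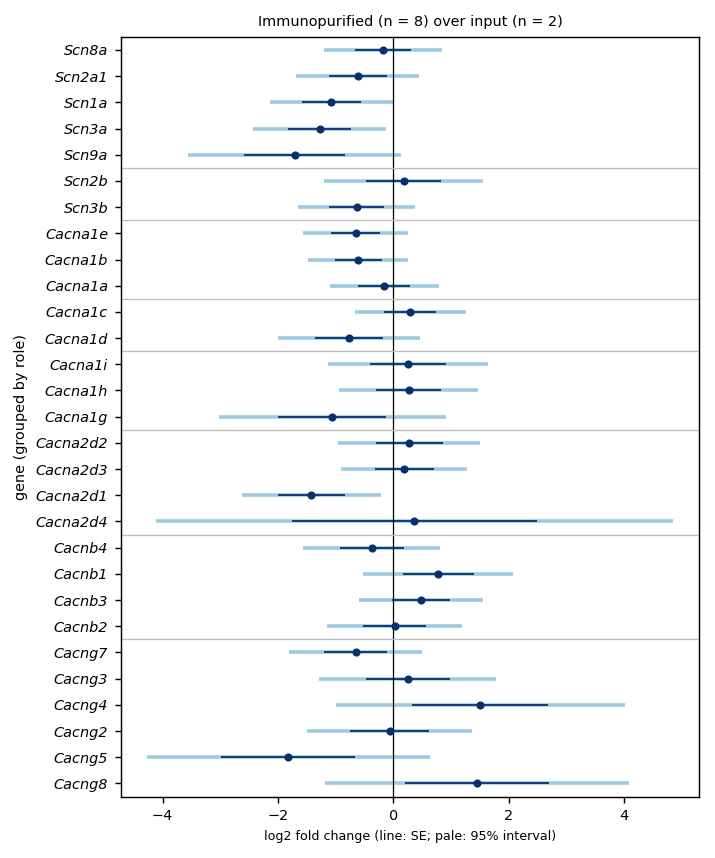
Log2 fold change of 29 channel genes in immunopurified against input RNA, with the SE as a line and the 95% interval as a pale line, by role. The 5 sodium channel pore genes shown all lie below 0, and every interval reaches past a 2-fold change.

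Long access makes some animals raise their cocaine intake over sessions (escalating) and leaves others stable (nonescalating). Both kinds were compared with saline mice, and with each other, within the 24 immunopurified libraries in 1 fit of 15854 genes with a term for the library set. No gene passed an adjusted p of 0.05 in these 3 comparisons (0% of genes by edgeR), and so none of the 31. DESeq2 called between 34 and 225 genes in the same 3 comparisons, and none of the 31.

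In escalating against saline mice, 1 of the 31 genes (3.23%) had an unadjusted p under 0.05, against 8.09% of all genes (1283). The gene was Cacna1d, the L-type pore of pacemaking. Cacna1d was at 7.87 and 17.8 CPM in the escalating libraries, against 46.9, 40.6 and 49.03 CPM in the saline libraries. The groups did not overlap, but the share of all genes without overlap between so few libraries was not computed. The log2 fold change was -1.85 ± 0.71 (SE), with an unadjusted p of 0.0143 and an adjusted p of 0.614 by edgeR's quasi-likelihood test, and with any 1 library left out it lay between -2.53 and -1.36. The other L-type pore, Cacna1c, was at 388 and 252 CPM in the escalating libraries, against 263, 473 and 298 CPM in the saline libraries (log2 fold change -0.13 ± 0.44). Cacna1d made up 6.96% ± 5.18 (SD, n = 2) of the summed TPM of the L-type pair in escalating libraries, against 19.1% ± 5.69 (n = 3) in saline libraries.

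The other genes named for this comparison by their p-values were further from the threshold. Stargazin, Cacng2, was at 16.2 and 26.1 CPM in the escalating libraries, against 64.9, 89.4 and 22.7 CPM in the saline libraries (log2 fold change -1.52 ± 0.81, edgeR adjusted p = 0.631), with 1 saline library below 1 of the escalating ones. Cacna2d1 was at 108 and 106 CPM in the escalating libraries, against 24.9, 105 and 75.1 CPM in the saline libraries (log2 fold change 0.63 ± 0.51, edgeR adjusted p = 0.793), and the highest saline library came within a few CPM of the escalating ones. Scn2a1 was at 185 and 727 CPM in the escalating libraries, against 129, 481 and 287 CPM in the saline libraries. Of the escalating libraries 1 lay within the saline range and 1 above it, the log2 fold change was 0.59 ± 0.53 (edgeR adjusted p = 0.82), and it was -0.69 without escalating replicate 2. Over the 31 genes 13 log2 fold changes were positive and 18 negative, with a median of -0.11, against -0.084 over all genes. With 1 library left out the median of the 31 lay between -0.32 (without escalating replicate 2) and 0.21 (without saline replicate 3), so its sign turned, and that of all genes lay between -0.41 and 0. All 8 markers of D2 neurons were on the positive side (median 0.36), with sums of 8054 and 8328 CPM in the escalating libraries, against 4509.7 to 10349 CPM in the saline libraries, and their part was not tested. No interval lay within a 2-fold change at 95% confidence.

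Escalating mice were also set against nonescalating mice, which took the same drug. Again Cacna1d was the only gene of the 31 with an unadjusted p under 0.05 (3.23%, against 8.75% of all genes, or 1388). It had 7.87 and 17.8 CPM in the escalating libraries, against 23.02, 19.6, 27.4, 56.9 and 74.7 CPM in the nonescalating libraries, so that the escalating libraries were the lowest of the 7. The log2 fold change was -1.64 ± 0.67 (SE; unadjusted p = 0.0203, edgeR adjusted p = 0.558) and -2.35 to -1.16 with 1 library left out. This comparison shares the escalating libraries with the one against saline, so the low values of Cacna1d are the same values in both. The share of all genes with such an order was not computed here either.

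Cacna1g was at 9.19 and 12.4 CPM in the escalating libraries, against 116, 6.53, 34.5, 34.4 and 13.2 CPM in the nonescalating libraries (log2 fold change -1.92 ± 1.18, edgeR adjusted p = 0.596). Scn1a was at 72.1 and 309.7 CPM in the escalating libraries, against 100.05, 50.1, 209.6, 71.5 and 87.9 CPM in the nonescalating libraries. The log2 fold change of Scn1a was 0.89 ± 0.53 (edgeR adjusted p = 0.586), and -0.53 without escalating replicate 2.

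In the same comparison 4 marker lists lay wholly on 1 side. All 8 markers shared by medium spiny neurons had positive log2 fold changes (median 0.57), with sums of 8263 and 9684 CPM in the escalating libraries, against 1675 to 8871 CPM in the nonescalating libraries. All 8 astrocyte markers had negative ones (median -0.92), with sums of 1075 and 1666 CPM in the escalating libraries, against 374 to 2605 CPM in the nonescalating libraries. So had all 8 oligodendrocyte markers (median -0.69), with sums of 893 and 1241 CPM in the escalating libraries, against 376 to 3459 CPM in the nonescalating libraries. The 5 nuclear RNAs were on the negative side as well (median -0.63), with sums of 12422 and 32553 CPM in the escalating libraries, against 11367 to 81637 CPM in the nonescalating libraries. None of these genes passed, and their part in the values of the channel genes was not tested. Nonescalating replicate 4, the library low in Drd2, had Malat1 at 76769 CPM, against 8929 to 28909 CPM in the other nonescalating libraries. The signs of these lists were not computed without it.

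In nonescalating against saline mice, 0 of the 31 genes had an unadjusted p under 0.05, against 6.74% of all genes (1068). Cacna1g was at 116, 6.53, 34.5, 34.4 and 13.2 CPM in the nonescalating libraries, against 17.4, 6.37 and 16.5 CPM in the saline libraries. The groups overlapped, with the highest and a low value both in the nonescalating group, and the log2 fold change was 1.59 ± 0.98 (SE; edgeR adjusted p = 0.805). Cacng8 was at 3.99, 18.1, 0.645, 8.99 and 14.6 CPM in the nonescalating libraries, against 45.9, 20.1 and 6.44 CPM in the saline libraries (log2 fold change -1.42 ± 0.98, edgeR adjusted p = 0.84), and the groups overlapped. Cacna1b, the N-type pore, was at 171, 104, 194, 105 and 137 CPM in the nonescalating libraries, against 248, 135 and 253 CPM in the saline libraries (log2 fold change -0.60 ± 0.41, edgeR adjusted p = 0.84), again with an overlap. Cacng5 had a log2 fold change of 1.15 ± 1.20 (edgeR adjusted p = 0.925), and -1.07 when the nonescalating libraries were set against saline withdrawal libraries of set 1.

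Negative log2 fold changes outnumbered positive ones in this comparison, 25 against 6 of the 31 genes, with a median of -0.17, against 50.4% positive and a median of 0.01 over all genes. All 6 sodium channel pores and all 4 calcium channel beta subunits were on the negative side, also with median-of-ratios scaling, under which 21 of the 31 genes were negative. Without nonescalating replicate 4, the library low in Drd2, 17 of the 31 were negative (median -0.024), with 4 of 6 sodium channel pores. Without saline replicate 3 there were 15 (median 0.057), with 3 of 6 sodium channel pores, and without nonescalating replicate 1 there were 23 (median -0.44), with 5 of 6. For the calcium channel beta subunits the signs without these libraries are not given here. Among them Cacnb1 was at 27.0 CPM in nonescalating replicate 4, against 127.7 to 187.6 CPM in the other nonescalating libraries. All 8 oligodendrocyte markers were on the positive side (median 1.12), with sums of 376 to 3459 CPM in the nonescalating libraries, against 429 to 3083 CPM in the saline libraries, and their part was not tested. The 95% interval lay within a 2-fold change for 4 genes, Cacna1a, Cacna1e, Cacna2d1 and Scn2b.

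**Figure D4:**
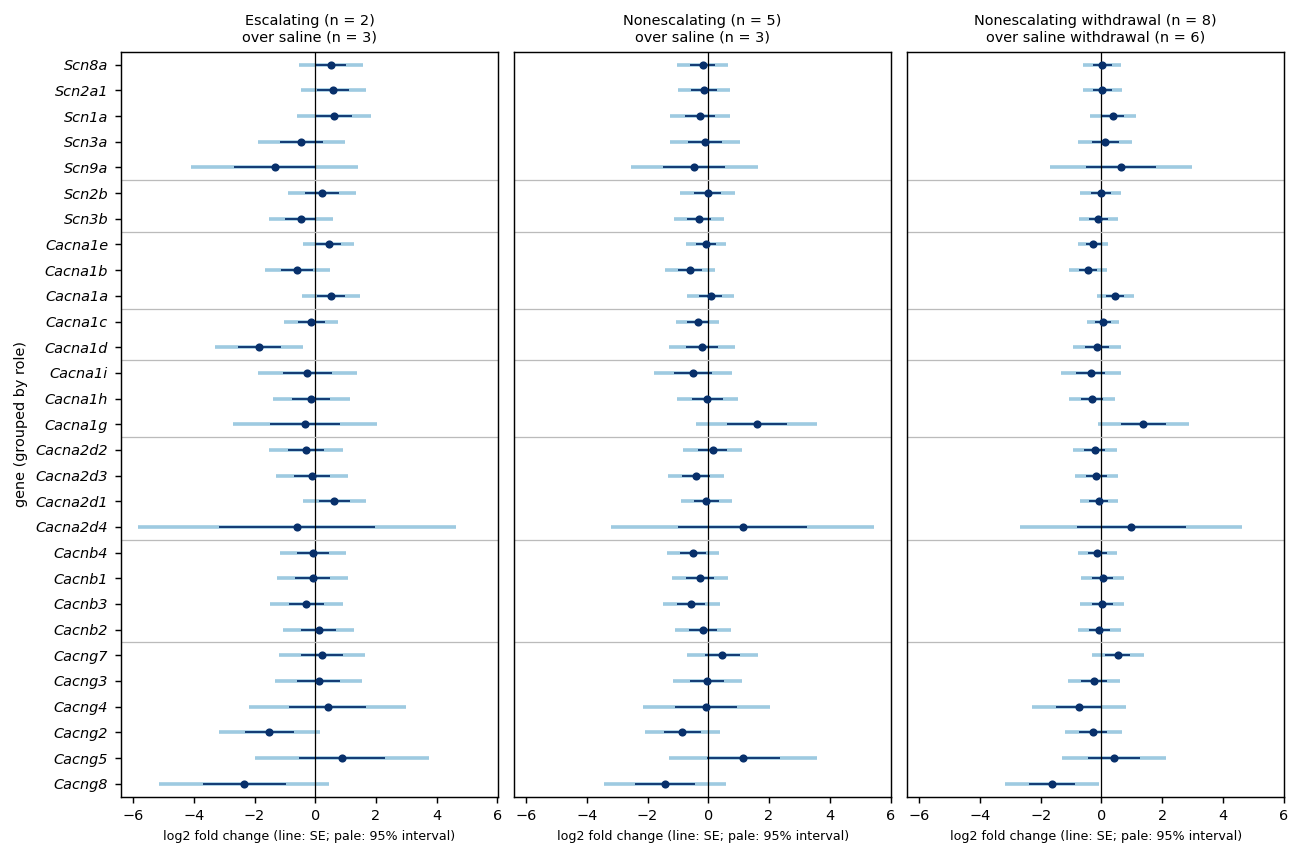
Log2 fold change of 29 channel genes in escalating against saline, nonescalating against saline and nonescalating withdrawal against saline withdrawal libraries (left to right), with the SE as a line and the 95% interval as a pale line. Cacna1d lies at -1.85 in the escalating panel, and the intervals are narrowest in the withdrawal panel, where 14 lie within a 2-fold change.

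The largest comparison of cocaine with saline was made after withdrawal, with 8 nonescalating withdrawal and 6 saline withdrawal libraries. No gene passed by edgeR (0%), and 1 of the 31 genes (3.23%) had an unadjusted p under 0.05, against 3.49% of all genes (553). This was Cacng8, at 0 to 13.4 (median 2.69) CPM in the nonescalating withdrawal libraries, against 6.16 to 25.5 (median 9.91) CPM in the saline withdrawal libraries. The groups overlapped. The log2 fold change was -1.62 ± 0.76 (SE), with an unadjusted p of 0.0402 and an adjusted p of 1 by edgeR.

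Cacna1g was at 3.05 to 62.6 (median 8.31) CPM in the nonescalating withdrawal libraries, against 1.61 to 10.95 (median 5.47) CPM in the saline withdrawal libraries (log2 fold change 1.38 ± 0.73, edgeR adjusted p = 1). Its log2 fold change was also positive in nonescalating against saline mice without withdrawal, which is a comparison with other libraries, and missed the threshold in both. Cacna1a, the P/Q-type pore, was at 79.1 to 202 (median 142) CPM in the nonescalating withdrawal libraries, against 56.7 to 134 (median 107) CPM in the saline withdrawal libraries (log2 fold change 0.46 ± 0.30). The N-type pore Cacna1b had a log2 fold change of -0.44 ± 0.31, and both had an edgeR adjusted p of 1.

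Of the 3 comparisons of cocaine with saline, this had the lowest median SE, 0.37, against 0.60 for escalating and 0.48 for nonescalating mice. The 95% interval lay within a 2-fold change for 14 genes, among them the L-type pores Cacna1c (log2 interval -0.49 to 0.59) and Cacna1d (-0.95 to 0.65), the R-type pore Cacna1e (-0.76 to 0.22), the sodium pores Scn2a1 (-0.62 to 0.69) and Scn8a (-0.61 to 0.66), and all 4 calcium channel beta subunits. Cacna1e had the lowest SE, 0.24. The low values of Cacna1d in escalating libraries had no counterpart here, where Cacna1d was at 35.8 to 87.2 (median 53.5) CPM in the nonescalating withdrawal libraries, against 22.1 to 131 (median 55.6) CPM in the saline withdrawal libraries (log2 fold change -0.15 ± 0.39). No escalating library was made after withdrawal. Over the 31 genes 15 log2 fold changes were positive, with a median of -0.022 (-0.12 to 0.077 with 1 library left out), against 0.049 over all genes. All 6 sodium channel pores were on the positive side (median 0.25), also with median-of-ratios scaling, and 2 of 6 with limma's voom (median -0.11) and 3 of 6 without nonescalating withdrawal replicate 5 of set 2 (median 0.11).

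**Figure D5:**
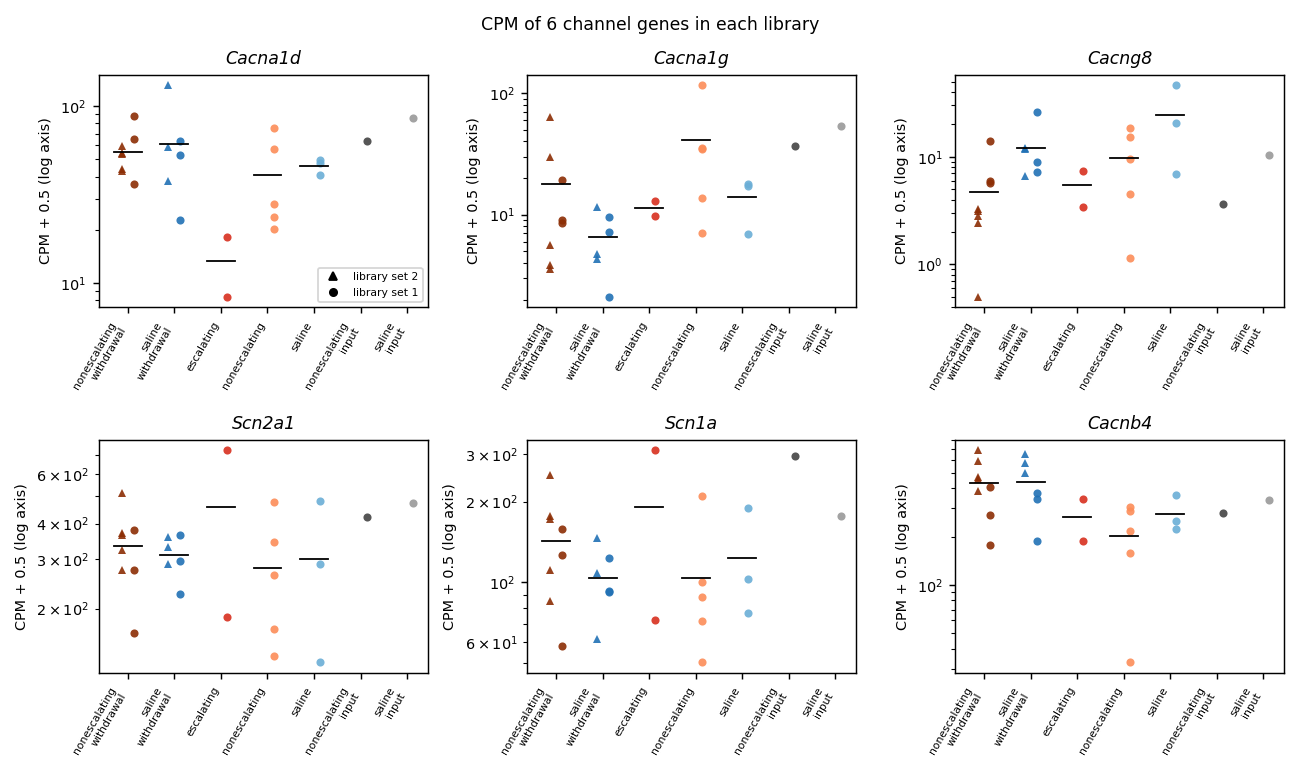
CPM (log axis, 0.5 added) of Cacna1d, Cacna1g, Cacng8, Scn2a1, Scn1a and Cacnb4 in every library, with triangles for set 2, circles for set 1 and a bar at each group mean. Both escalating libraries lie low for Cacna1d at 7.87 and 17.8 CPM, and Cacnb4 is higher in set 2 than in most of set 1.

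Withdrawal itself was looked at within saline mice and within nonescalating mice. In saline withdrawal against saline libraries 0 of the 31 genes had an unadjusted p under 0.05, against 6.64% of all genes (1052), and 0% passed the adjusted threshold. Cacng5 was at 2.19 to 49.6 (median 16.5) CPM in the saline withdrawal libraries, against 0.643, 3.54 and 7.05 CPM in the saline libraries (log2 fold change 2.28 ± 1.29, edgeR adjusted p = 0.787). Cacna1g had a log2 fold change of -1.44 ± 0.94, Cacna1a of -0.48 ± 0.39 and Scn3a of 0.34 ± 0.58, and their edgeR adjusted p-values were 0.827, 0.894 and 0.982. The value of Scn3a was -0.081 without saline withdrawal replicate 3 of set 1. Microglia markers were on the negative side in 5 of 5 tested (median -3.37), with sums of 1.80 to 35.5 CPM in the saline withdrawal libraries, where 1 of 6 was at 0 throughout, against 12.5 to 415 CPM in the saline libraries, and their part was not tested.

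In nonescalating withdrawal against nonescalating libraries 0 of the 31 genes had an unadjusted p under 0.05, against 2.78% of all genes (440), and again 0% passed. Cacna1g was at 3.05 to 62.6 (median 8.31) CPM in the nonescalating withdrawal libraries, against 116, 6.53, 34.5, 34.4 and 13.2 CPM in the nonescalating libraries (log2 fold change -1.66 ± 0.88). Cacna2d2 had a log2 fold change of -0.66 ± 0.43 and Cacng5 of 1.55 ± 1.04, both with an edgeR adjusted p of 1. All 6 sodium channel pores and all 3 sodium channel beta subunits were on the positive side (medians 0.41 and 0.33), also with median-of-ratios scaling. Without nonescalating replicate 4 these were 5 of 6 (median 0.28) and 2 of 3 (median 0.18). Astrocyte markers had negative log2 fold changes in 8 of 8 genes (median -0.998), with sums of 451 to 1851 CPM in the nonescalating withdrawal libraries, against 374 to 2605 CPM in the nonescalating libraries, and microglia markers in 5 of 5 tested (median -1.75), with sums of 1.91 to 32.4 CPM, against 9.79 to 75.3 CPM. None was at 0 in every library of either group. Their part in the values of the channel genes was not tested.

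The difference between the cocaine effect after withdrawal and the cocaine effect without it was tested as an interaction. It had an unadjusted p under 0.05 for 0 of the 31 genes, against 4.89% of all genes (776), and 0% passed the adjusted threshold by edgeR. The values were 0.66 ± 0.60 for Scn1a, -0.36 ± 0.59 for Cacna2d2 and -0.66 ± 1.29 for Cacng4 (log2 difference ± SE, edgeR adjusted p of 1 for each). The SE of the 31 differences had a median of 0.60, and no interval lay within a 2-fold difference, so none of these genes was shown to respond alike in the 2 settings. All 7 endothelial markers had a positive difference (median 0.31), with sums of 316 to 4987 CPM in nonescalating withdrawal, 288 to 4488 CPM in saline withdrawal, 962 to 4900.2 CPM in nonescalating and 825 to 4753 CPM in saline libraries, and their part was not tested.

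The lowest unadjusted p of a channel gene over the 9 comparisons belonged to the library set. Set 2 was compared with set 1 in the fit that holds the groups constant, which rests on the withdrawal groups. By edgeR 145 genes (0.915%) passed an adjusted p of 0.05, and none of the 31. At an unadjusted p under 0.05 there were 3 (9.68%), Cacnb4, Cacnb2 and Cacna2d1, against 13.5% of all genes (2138).

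Cacnb4 was at 384, 467, 456, 592 and 688 CPM in the nonescalating withdrawal libraries of set 2, against 177, 406 and 274 CPM in those of set 1. In saline withdrawal libraries it was at 655, 496 and 578 CPM in set 2, against 188, 343 and 372 CPM in set 1. Within saline withdrawal the sets did not overlap, and within nonescalating withdrawal 1 library of set 1 lay above the lowest of set 2. For all genes the share without overlap was not computed. The log2 fold change was 0.96 ± 0.32 (SE; unadjusted p = 0.00579, edgeR adjusted p = 0.158). Cacnb4 passed with DESeq2 (adjusted p = 0.0478, among 679 genes or 4.35%) and with limma's voom (adjusted p = 0.0404, among 459 genes or 2.9%), and voom also called Scn9a (log2 fold change 2.26, adjusted p = 0.0406).

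Cacnb2 had a log2 fold change of 0.80 ± 0.35 in set 2 against set 1 and Cacna2d1 of 0.71 ± 0.32, with edgeR adjusted p-values of 0.3 and 0.316. Cacna1h (-0.64 ± 0.37) and Cacng8 (-1.29 ± 0.75) had the lowest p-values among negative changes. All 6 sodium channel pores had positive log2 fold changes, with median-of-ratios scaling too, with a median of 0.44, against -0.087 over all genes. Vessel markers had negative log2 fold changes in 7 of 7 endothelial genes (median -2.18, 3 passing) and 7 of 7 mural genes (median -1.85, 1 passing). The endothelial sum was 288 to 1702 CPM in withdrawal libraries of set 2, against 678 to 4987 CPM in those of set 1, and the mural sum was 124 to 611 CPM in set 2, against 1072 to 3743 CPM in set 1. GABA interneuron markers were on the negative side in 5 of 5 tested (median -1.08), and Nos1 passed (-2.44 ± 0.46, edgeR adjusted p = 0.00374). Their sum was 42.1 to 101 CPM in set 2, against 86.4 to 283 CPM in set 1. Oligodendrocyte precursor markers were so in 5 of 5 (median -1.27). Their sum was 7.31 to 80.8 CPM in set 2, against 127 to 329 CPM in set 1. Of them Cspg4 alone passed (-2.72 ± 0.46, edgeR adjusted p = 0.00157). Gpr17 was at -2.117 ± 0.806, Olig2 at -1.274 ± 1.199, Olig1 at -0.164 ± 1.155 and Pdgfra at -0.132 ± 0.67. In immunopurified against input RNA Cspg4 was at 2.03, on the side of the vessel markers, and Olig2 at -3.45. Cholinergic markers were on the positive side in 4 of 4 tested (median 0.32), with a sum of 22.2 to 67.8 CPM in set 2, against 1.64 to 80.2 CPM in set 1. No marker of these 5 lists was at 0 in all libraries of a withdrawal group. The part of these cell types in the higher Cacnb4 of set 2 was not tested.

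Genes that work with these channels were followed in 3 lists, 17 partners of sodium channels at the initial segment and node, 26 partners of calcium channels with calmodulin signalling, and 28 other genes of calcium entry, release and extrusion. In the 7 comparisons of treatment and withdrawal 0 genes of any list passed the adjusted threshold by edgeR. In nonescalating against saline mice the lowest p-values of the 3 lists belonged to other calcium genes. Trpc5 was at 3.90 ± 1.12 and Hcn3 at -3.79 ± 1.14 (edgeR adjusted p = 0.719 for both). Of the 17 sodium channel partners 3 had positive changes (median -0.30), where over all genes about as many changes were positive as negative. This count was not computed without nonescalating replicate 4 or saline replicate 3, on which the signs of the channel genes depended. Crmp1 was at -1.23 ± 0.47 and Ank3, the ankyrin that anchors sodium channels at the initial segment, at -0.69 ± 0.32 (edgeR adjusted p = 0.719 and 0.719). In escalating against nonescalating mice 15 of the 17 were positive (median 0.52), where the median of all genes was -0.12 and, as given, all 8 shared medium spiny neuron markers were positive and all 16 astrocyte and oligodendrocyte markers negative. The part of these cell types in the partner genes was not tested, and the count of partners was not computed without nonescalating replicate 4. Akap5, which tethers kinases near L-type channels, was at 0.91 ± 0.41 there (edgeR adjusted p = 0.558). After withdrawal 6 of the 17 were positive in nonescalating against saline mice (median -0.075).

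In immunopurified against input RNA 5 of the 17 sodium channel partners were positive (median -0.57), with the node and axon proteins Cntn2 at -2.19 ± 0.80 and Nfasc at -1.03 ± 0.38 (edgeR adjusted p = 0.375 and 0.387), and 0 passed. Between the sets 2 genes passed, both of the list of other calcium genes. Slc8a1, a sodium-calcium exchanger, was higher in set 2 (log2 fold change 1.35 ± 0.29, edgeR adjusted p = 0.0129). Itpr3, an inositol trisphosphate receptor, was lower in set 2 (log2 fold change -3.01 ± 0.66, edgeR adjusted p = 0.0171), and it had a log2 fold change of 4.39 ± 1.19 (edgeR adjusted p = 0.132) in immunopurified against input RNA.

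Libraries of 1 group differed for a channel gene by a median SD of 0.76 on the log2 CPM scale, against 1.24 over the 16008 genes above the count floor. With only genes of a mean log2 CPM of at least 5, the median SD was 0.70 for 23 of the channel genes, against 0.69 for 4850 genes. Cacna1c had the lowest within-group SD of the 31, 0.45, and Cacna2d4 the highest, 2.17.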

How the data were processed

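Ribosome-bound RNA (24 libraries) and total RNA (2 libraries) of the accumbens nucleus were sequenced. Per the submitters' processing notes, the authors used STAR 2.0.0e, HTSeq (version not given) and the mouse build mm10, and the deposited files hold raw read counts per gene symbol. Neither the strand setting nor the annotation is given in the sources used here. The 5 HTSeq summary entries without a gene were left out; they hold the reads outside genes, ambiguous and multiply placed, and genes took 13.7% to 58.4% of all records. Analysis used the 31735 genes listed for every library.

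CPM were computed with TMM factors (edgeR 4.0.16, R 4.3.3) and TPM with merged exon lengths of GENCODE M21 (GRCm38), which 23627 genes (74.45%) and all 31 channel genes had. Scn2a1 was matched to Scn2a there. Groups were tested with edgeR's robust quasi-likelihood test, with group and library set as terms over the 24 immunopurified libraries (15854 genes after filterByExpr with a minimum count of 10). Immunopurified RNA was tested against input in a separate fit with the agent as a term (14929 genes). p-values were adjusted over all genes tested (Benjamini-Hochberg, threshold 0.05), and SEs were derived from each log2 fold change and its F statistic. The code was tested on simulated data. Alternatives were DESeq2 1.42.0, limma 3.58.1 (voom with quality weights), other scaling, filters, library subsets and each library left out. DESeq2 adjusted p-values given as NA stayed NA.

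The channel genes, partner lists and markers were chosen with earlier results of these data known. Fully described in each comparison were the 2 genes of lowest p in each direction (5 for immunopurified RNA), among those averaging 2 or more on the log2 CPM scale. The values of 2 channel genes are not reported here, though counts and medians include them. At the depth of the immunopurified libraries, 3 counts correspond to 0.171 to 1.95 CPM. No pair of libraries in a group agreed within counting noise (57 pairs, lowest chi-square per degree of freedom 19.0). Marker lists of 11 cell types and of nuclear RNA were computed in each comparison. Those whose tested genes all lay on 1 side are given beside it, and for immunopurified against input RNA mixed lists are given too.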

Additional observations from a re-analysis of the deposited data

Results flagged for a closer look

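In groups of 4 to 10 libraries, 4 of 60 pairs of gene and group held a library whose gap to its nearest neighbour passed Dixon's 95% critical value, and chance alone gives about 1 in 20. Cacna2d1 was at 46.1 CPM (310 counts) in nonescalating withdrawal replicate 1 of set 1, below the other 7 libraries of its group at 87.9 to 143.9 CPM. Cacna2d2 was at 44.2 CPM in saline withdrawal replicate 1 of set 1, against 232 to 336 CPM in the other 5. The same library was low for Cacnb3, at 24.5 CPM against 84.4 to 147 CPM, and its Drd2 was the lowest of its group at 881 CPM. Cacnb1 was at 27.0 CPM (72 counts) in nonescalating replicate 4, the library lowest in Drd2, against 128 to 188 CPM in the other 4.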

How the results depend on the processing

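None of the 31 genes passed the adjusted threshold by edgeR in any of the 9 comparisons. Of 743 alternative values of the 39 gene results, 730 kept direction and side of the threshold, 5 newly passed and 8 changed sign. With voom the log2 fold change was 0.040 for Cacna2d2 (nonescalating withdrawal against nonescalating) and 0.87 for Cacng4 (interaction), and against saline withdrawal libraries of set 1 it was -1.07 for Cacng5 (nonescalating). With 1 library left out the interaction ranged from -1.32 to 0.57 for Cacng4 and -0.58 to 0.088 for Cacna2d2, and the log2 fold change from -0.69 to 1.27 for Scn2a1 (escalating against saline), -0.53 to 1.60 for Scn1a (escalating against nonescalating) and -0.081 to 0.88 for Scn3a (saline withdrawal against saline). By edgeR 0 genes passed in the 7 comparisons of treatment and withdrawal, while between 440 and 1388 had an unadjusted p under 0.05. DESeq2 called 34 (nonescalating against saline), 143 (escalating against saline), 225 (escalating against nonescalating), 2 (nonescalating withdrawal against saline withdrawal), 30 (saline withdrawal against saline), 11 (interaction), 679 (sets) and 757 (immunopurified against input), with 1 channel gene, Cacnb4, between the sets. Voom called 8 (escalating against nonescalating), 459 (sets) and 1091 (immunopurified against input), with 2 and 3 channel genes in the last pair. Immunopurified against input gave 132 genes with no filter, 70 with a CPM filter and 160 with 16 immunopurified libraries of set 1, against 38 as reported. With 1 library left out the count was 0 to 1 (escalating against saline), 0 to 2 (escalating against nonescalating), 50 to 203 (sets) and 1 to 252 (immunopurified against input). Deviations of same-numbered libraries from their group means were weakly correlated (25 pairs, r -0.209 to 0.312, median 0.07, 10 pairs over 0.1). For 194 other pairs the median was -0.011, with 41 over 0.1. The labels do not say that same-numbered libraries belong together, and a replicate block was used only as an alternative. With it 93 genes passed between the sets, and no call of a channel gene changed. Blocking immunopurified against input on the 2 pairs of same-numbered libraries, chosen after seeing the data and with 1 residual degree of freedom, gave 327 genes and no channel gene; the labels do not say that a number marks 1 animal. The median of all genes in escalating against nonescalating mice was -0.257 with median-of-ratios scaling, against -0.123 as reported. Within roles, longest-transcript lengths put Cacna1b at rank 3, Cacna1i at rank 2 and Cacna1h at rank 1, and these lengths or CPM put Cacnb1 at rank 3. The cause of these changes was not tested. Median SEs of the channel genes were highest for the interaction (0.60), escalating against saline (0.60) and immunopurified against input (0.57), and genes near the floor, such as Cacna2d4, could not show a difference at this depth.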
